A study of Mus musculus and Mus spretus with 18 samples.

Results

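The genes described here encode subunits of AMPA and kainate receptors, the ion channels through which glutamate drives fast excitation between neurons. They were taken by their Ensembl IDs from a list of 8 genes. Of these, 7 had values in the deposited table, out of 12346 genes in all: the AMPA receptor genes Gria1 (ENSMUSG00000020524), Gria2 (ENSMUSG00000033981), Gria3 (ENSMUSG00000001986) and Gria4 (ENSMUSG00000025892), and the kainate receptor genes Grik2 (ENSMUSG00000056073), Grik3 (ENSMUSG00000001985) and Grik5 (ENSMUSG00000003378). Grik1 (ENSMUSG00000022935), another kainate receptor gene, had no row there and was not analysed here.

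Expression was measured in whole brains, without the olfactory bulb, of male mice on an Affymetrix 1-colour array, which carries the RNA of 1 animal. The 6 groups were Mus spretus of the strain SPRET/EiJ at day 0 (newborn), day 14 (pup) and day 56 (young adult) and Mus musculus of the strain WSB/EiJ at the same ages, with 3 arrays in each group. They are called spretus and musculus below. Each species was represented by 1 inbred strain bred in 1 facility, so species and strain cannot be told apart, and no group received a treatment.

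Both kinds of receptor are tetramers built from subunits that each gene family supplies. AMPA receptors carry most fast excitatory transmission, and the GluA2 subunit (Gria2), once its messenger RNA is edited in the pore region, makes them nearly impermeable to calcium. Kainate receptors act on both sides of the synapse and tune release and excitability, and the GluK5 subunit (Grik5) works only together with GluK1, GluK2 or GluK3. In the rodent brain the make-up of glutamate receptors changes during the first weeks after birth, when most synapses form.

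Values are log2 expression values, where a difference of 1 is a 2-fold difference. Differences were tested with limma on the whole table, and those with a Benjamini-Hochberg adjusted p under 0.05 are said to be called. Array medians lay between 6.52 and 6.56. Within groups, arrays correlated across genes with r of 0.992 to 0.996, a measure that differences between genes hold near 1; results that rest on a single array are given with and without it. Mean brightness over all arrays exceeded that of 76.9% of genes for Grik2 and of more for the AMPA genes and Grik5, whereas Grik3, at 6.17, was dimmer than the median gene. The authors had masked 5 probes of Gria4, 2 of Gria1, 1 each of Gria2, Gria3 and Grik2, and 0 of Grik3 and Grik5. The median over all genes was 2. The files pair no ID with a name, so marker genes of neurons and glia could not be looked up to check the tissue label.

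The first comparison asked how the receptor genes change from birth to the second postnatal week. All 4 AMPA genes rose in spretus, by 1.30-fold to 2.33-fold. In musculus Gria1 and Gria3 rose, by 1.46-fold and 2.47-fold, and the smaller differences of Gria2 and Gria4 were not called. No kainate gene rose in either species, and Grik2 fell in musculus. Of all genes tested, 39.5% were called over this step in spretus and 41.4% in musculus, against 4 of the 7 receptor genes in spretus and 3 in musculus. The share called in the upward direction was 19.2% of all genes in spretus and 19.6% in musculus, against 4 of the 4 AMPA genes in spretus and 2 in musculus. The median log2 change of the 7 genes was 0.38 in spretus and 0.16 in musculus, and that of all genes was 0.03 in spretus and -0.0018 in musculus. In whole brain, which mixes all regions and cell types, fewer cells of a type and less RNA per cell cannot be told apart.

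Gria3, which encodes a subunit that mostly pairs with GluA2, changed most. In spretus its log2 values were 8.87, 8.84 and 8.58 on day 0, 9.88, 9.92 and 10.16 on day 14, and 9.97, 9.96 and 10.01 on day 56. In musculus they were 8.64, 8.79 and 8.76 on day 0, 9.86, 10.02 and 10.22 on day 14, and 9.85, 10.08 and 9.74 on day 56. Every array of the later ages lay above every newborn array, and the later ages overlapped each other. The log2 change from day 0 to day 14 was 1.22 ± 0.11 in spretus (SE; limma, adjusted p = 1.02e-07) and 1.31 ± 0.11 in musculus (adjusted p = 3.73e-08). Of all genes, 4.07% in spretus and 4.001% in musculus had a larger absolute change over this step. The difference between these changes, -0.08 ± 0.16 in the direction spretus minus musculus, was not called (limma, adjusted p = 0.879; 95% interval -0.42 to 0.25).

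Gria1 encodes the subunit best known for its part in long-term potentiation. Its spretus values were 9.85, 9.997 and 9.93 on day 0, 10.45, 10.56 and 10.52 on day 14, and 10.59, 10.57 and 10.55 on day 56. In musculus they were 9.86, 9.95 and 10.08 on day 0, 10.49, 10.47 and 10.57 on day 14, and 10.61, 10.82 and 10.71 on day 56. Newborn arrays were below all later ones in both species. The rise to day 14 was 0.59 ± 0.08 in spretus (limma, adjusted p = 8.72e-06) and 0.55 ± 0.08 in musculus (adjusted p = 1.73e-05). After day 14 the musculus arrays stood higher again without overlap, by 0.20 ± 0.08, but this step was not called (adjusted p = 0.107).

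Gria2, the gene of the subunit that sets calcium permeability, had the smallest change of the AMPA genes. In spretus it measured 11.34, 11.16 and 11.12 on day 0, 11.55, 11.51 and 11.70 on day 14, and 11.56, 11.55 and 11.66 on day 56. In musculus it measured 11.33, 11.43 and 11.39 on day 0, 11.41, 11.59 and 11.62 on day 14, and 11.52, 11.60 and 11.73 on day 56. The spretus newborns lay below all older spretus animals, whereas in musculus the day 0 and day 14 arrays overlapped. The log2 change to day 14 was 0.38 ± 0.09 in spretus (limma, adjusted p = 0.00161) and 0.16 ± 0.09 in musculus (adjusted p = 0.157). The difference between these changes, 0.22 ± 0.12, was not called (adjusted p = 0.457), so a call in spretus alone does not show that the species differed.

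Gria4 encodes a subunit known for fast kinetics and prominent in interneurons and in cerebellar and auditory circuits. Its spretus arrays read 8.54, 8.47 and 8.50 on day 0, 9.49, 9.40 and 9.04 on day 14, and 9.44, 9.50 and 9.41 on day 56. Its musculus arrays read 8.82, 8.60 and 8.45 on day 0, 9.02, 9.13 and 8.62 on day 14, and 9.26, 9.03 and 9.36 on day 56. Spretus newborns did not overlap with older spretus animals, while in musculus day 14 replicate 3 lay within the newborn range. The change to day 14 was 0.81 ± 0.14 in spretus (limma, adjusted p = 0.000109) and 0.30 ± 0.14 in musculus (adjusted p = 0.0945). Without musculus day 14 replicate 3 the musculus change was 0.45 and was called (adjusted p = 0.0129), as it was without musculus day 0 replicate 1 (0.40, adjusted p = 0.0421). The spretus change exceeded the musculus change by 0.51 ± 0.19, with an unadjusted limma p of 0.0169 and an adjusted p of 0.233, and was not called. Over that test 1.11% of all genes and 0 of the 7 receptor genes were called. At an unadjusted limma p under 0.05 there were 2 of the 7, and the share of all genes at that looser threshold is not given here.

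**Figure D1:**
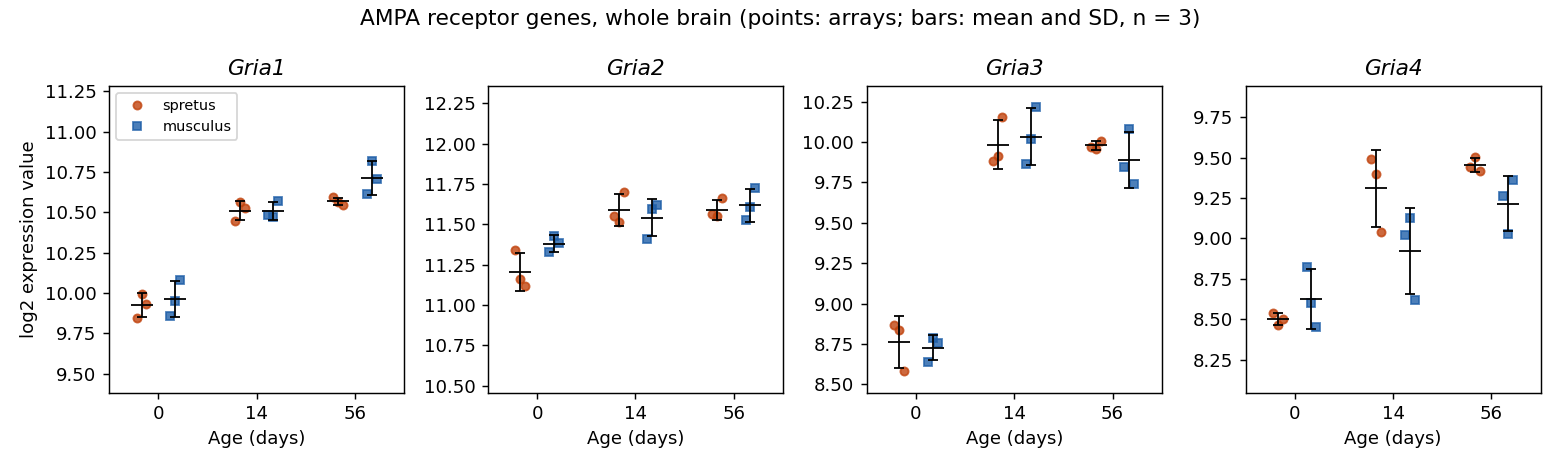
Log2 expression values of the 4 AMPA receptor genes by age in days, with spretus arrays as circles and musculus arrays as squares, and the mean and SD of each group of 3 arrays as black bars; every panel spans the same log2 range around its own level. The largest step is that of Gria3 between day 0 and day 14, 1.22 in spretus and 1.31 in musculus, and Gria2 moves least.

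From day 14 to day 56 no AMPA gene was called in either species. Over this step 8.13% of all genes in spretus and 11.9% in musculus were called, against 1 of the 7 receptor genes in spretus and 0 in musculus. In spretus 0 of the AMPA genes had an unadjusted limma p under 0.05, and in musculus 2 had, Gria1 and Gria4. The share of all genes at this looser threshold is not given here. The AMPA changes lay between -0.01 and 0.14 in spretus and between -0.14 and 0.29 in musculus. The 95% intervals in spretus were -0.11 to 0.22 for Gria1, -0.18 to 0.19 for Gria2, -0.24 to 0.23 for Gria3 and -0.14 to 0.43 for Gria4. In musculus they were 0.04 to 0.37 for Gria1, -0.10 to 0.26 for Gria2, -0.38 to 0.09 for Gria3 and 0.0037 to 0.58 for Gria4.

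Between birth and young adulthood all 4 AMPA genes rose in both species. The share of all genes called upward was 20.6% in spretus and 22.3% in musculus, and 42.6% in spretus and 46% in musculus were called in either direction, against 5 of the 7 receptor genes in each species. The log2 rises were 0.64 for Gria1, 0.39 for Gria2, 1.22 for Gria3 and 0.95 for Gria4 in spretus, with limma adjusted p-values of 7.56e-08 to 0.00132. In musculus they were 0.75, 0.24, 1.16 and 0.59 for the same genes, with adjusted p-values of 1.05e-07 to 0.0312. The weakest of these calls, Gria2 in musculus, was lost when musculus day 0 replicate 1 or 3 or day 56 replicate 2 or 3 was left out, with changes of 0.18 to 0.25 and adjusted p-values of 0.0563 to 0.135.

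The part of the day 0 to day 56 change that was present at day 14 was computed for each AMPA gene. The day 0 mean and the day 0 to day 56 change were held fixed. The SDs therefore give the scatter of the day 14 arrays alone and understate the uncertainty of the shares, most where the total change is small. Gria3 stood at 100.4% ± 12.4 of its day 0 to day 56 change in spretus and at 112% ± 15.2 in musculus (SD, n = 3). Gria1 stood at 90.9% ± 9.14 in spretus and 72.9% ± 7.41 in musculus. For Gria4 the shares were 84.9% ± 25.2 in spretus and 50.4% ± 45.4 in musculus, where the arrays ran from -0.89% to 85.1%. Gria2, with its small total change, gave 99.3% ± 25.4 in spretus and 67.4% ± 47.2 in musculus. The ranges of the musculus shares of Gria1, Gria2 and Gria4 overlapped, and differences between shares were not tested.

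The AMPA genes moved by unequal amounts. Taken within each array, the log2 value of Gria3 minus that of Gria2 rose from day 0 to day 14. The rises were 0.84 ± 0.07 in spretus and 1.15 ± 0.06 in musculus (SE over 3 arrays at each age). These are shifts of Gria3 relative to Gria2 of 1.79-fold in spretus and 2.21-fold in musculus, and the later arrays lay above the newborn arrays without overlap. The value of Gria1 minus that of Gria2 rose by 0.20 ± 0.12 in spretus, with overlap, and by 0.39 ± 0.08 in musculus, without. For Gria4 against Gria2 the shift to day 14 was 0.43 ± 0.20 in spretus and 0.14 ± 0.23 in musculus, and the groups overlapped in both. By day 56 it was 0.57 ± 0.08 in spretus, without overlap, and 0.35 ± 0.16 in musculus, with overlap. Such a shift compares the changes of 2 genes, was not tested, and says nothing of which has more messenger RNA, since signals of different probes are not on a common scale.

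**Figure D2:**
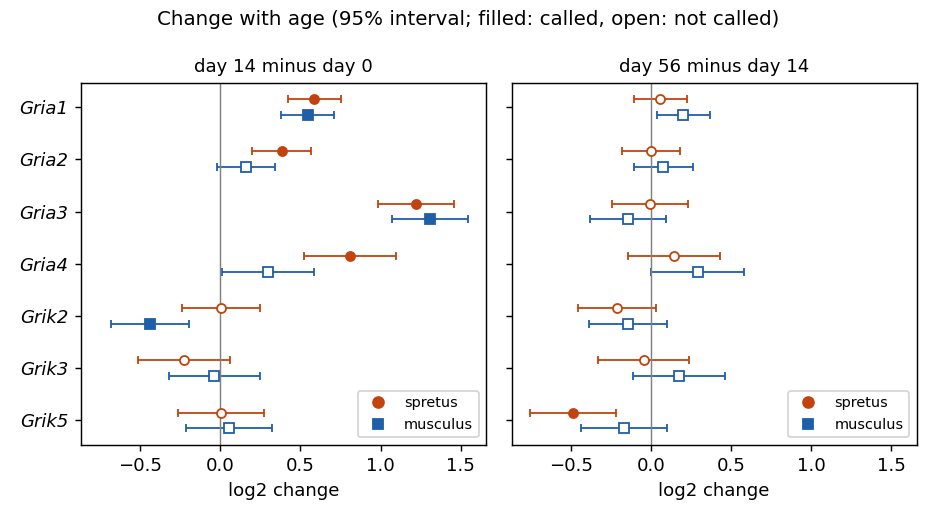
Log2 change of each receptor gene with age, day 14 minus day 0 on the left and day 56 minus day 14 on the right, with spretus as circles above musculus as squares; bars are 95% intervals of the limma fit and filled points were called. The filled points on the left are all 4 AMPA genes in spretus, Gria1 and Gria3 in musculus and Grik2 in musculus; the right panel has 1, Grik5 in spretus.

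Grik2 was the receptor gene called between the species. It encodes GluK2, a kainate receptor subunit that forms channels by itself or with GluK5 and is known for its role at hippocampal mossy fibre synapses. In spretus its log2 values were 8.88, 8.65 and 8.55 on day 0, 8.92, 8.70 and 8.47 on day 14, and 8.35, 8.62 and 8.49 on day 56. In musculus they were 8.32, 8.48 and 8.61 on day 0, 8.03, 8.08 and 7.98 on day 14, and 7.86, 7.97 and 7.83 on day 56. The species overlapped at birth, and at both later ages every spretus array lay above every musculus array.

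The Grik2 level was higher in spretus by 0.67 ± 0.12 at day 14 (1.59-fold; limma, adjusted p = 0.00108) and by 0.60 ± 0.12 at day 56 (1.51-fold; adjusted p = 0.00212). At day 0 the difference of 0.23 ± 0.12 was not called (adjusted p = 0.228; 95% interval -0.02 to 0.47). Both calls held in all 24 alternative fits, many of which left the difference itself as it was. With 1 array left out, the differences lay between 0.56 and 0.78 at day 14 and between 0.53 and 0.67 at day 56. Absolute differences larger than these were seen in 2.21% of all genes at day 14 and in 3.86% at day 56. Between the species, 14.3% of all genes were called in newborns, 13.1% in pups and 14.3% in young adults, against 0, 1 and 1 of the 7 receptor genes. In newborns 0 of the 7 had an unadjusted limma p under 0.05. Over the mean of the 3 ages the Grik2 difference was 0.50 ± 0.07 (adjusted p = 2.19e-05), where 29.5% of all genes and 1 of the 7 receptor genes were called. The authors had masked 1 Grik2 probe, and whether sequence differences between the species affect the remaining probes was not tested.

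From day 0 to day 14 the log2 change of Grik2 was 0.0036 ± 0.12 in spretus (limma, adjusted p = 0.986), and in musculus Grik2 fell by 0.44 with a standard error of 0.12 (adjusted p = 0.00482). By day 56 the total change was -0.21 ± 0.12 in spretus (adjusted p = 0.166) and -0.58 ± 0.12 in musculus (adjusted p = 0.000412). The change from day 0 to day 14 was higher in spretus than in musculus by 0.44 ± 0.16, with an unadjusted p of 0.0148, and this difference was not called over all genes (limma, adjusted p = 0.221). Ordered by mean, the 6 groups ran from spretus day 14 at 8.70 and spretus day 0 at 8.69 through spretus day 56 at 8.48 and musculus day 0 at 8.47 to musculus day 14 at 8.03 and musculus day 56 at 7.89. Among neighbours in this order, the arrays of the 4 upper groups overlapped, while those of musculus day 0 lay above musculus day 14. The lowest musculus day 14 array and the highest musculus day 56 array were nearly equal. The step from musculus day 14 to day 56, -0.14 ± 0.12, was not called (adjusted p = 0.489).

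Grik5 encodes the high-affinity subunit GluK5. In spretus it read 9.82, 9.83 and 9.97 on day 0, 9.57, 10.09 and 9.96 on day 14, and 9.62, 9.24 and 9.31 on day 56. In musculus it read 9.83, 9.83 and 9.60 on day 0, 9.83, 9.78 and 9.82 on day 14, and 9.53, 9.81 and 9.58 on day 56. The young adult spretus arrays were all below the newborn ones, and 1 of them lay within the range of day 14. In spretus Grik5 fell by 0.48 on the log2 scale from day 14 to day 56, with a standard error of 0.13 (limma, adjusted p = 0.0256), and by 0.48 from day 0 to day 56 (adjusted p = 0.00469).

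The Grik5 change after day 14 was negative with any 1 array left out, between -0.64 and -0.38, but its call rested on single arrays. It was no longer called without spretus day 14 replicate 2 (-0.38, adjusted p = 0.126) or replicate 3 (-0.44, adjusted p = 0.089), nor without spretus day 56 replicate 2 (-0.41, adjusted p = 0.109) or replicate 3 (-0.44, adjusted p = 0.0929). The fall from day 0 to day 56 was called in all 24 alternative fits, many of which left its size as it was. In musculus the Grik5 change was -0.17 ± 0.13 from day 14 to day 56 (adjusted p = 0.443) and -0.11 ± 0.13 from day 0 to day 56 (adjusted p = 0.517). The difference between the species' changes after day 14, -0.32 ± 0.18, was not called (adjusted p = 0.529). For that test 0.0405% of all genes were called, and 0 of the 7 receptor genes had even an unadjusted limma p under 0.05.

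Grik3 encodes GluK3, a subunit with low sensitivity to glutamate. Its log2 values ran from 5.98 to 6.56 over the spretus arrays and from 5.90 to 6.47 over the musculus arrays, and the ages overlapped in both species. Group means lay between 6.07 at spretus day 56 and 6.34 at spretus day 0. None of its 12 comparisons was called. The change from day 0 to day 56 was -0.27 ± 0.13 in spretus (limma, adjusted p = 0.122), and passed the threshold without spretus day 0 replicate 2 (-0.38, adjusted p = 0.0468). With any 1 array left out this change lay between -0.38 and -0.16. In musculus it was 0.14 ± 0.13 (limma, adjusted p = 0.436). The spread within groups, with SDs of 0.11 to 0.22, was close to the range of the group means, 0.27.

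**Figure D3:**
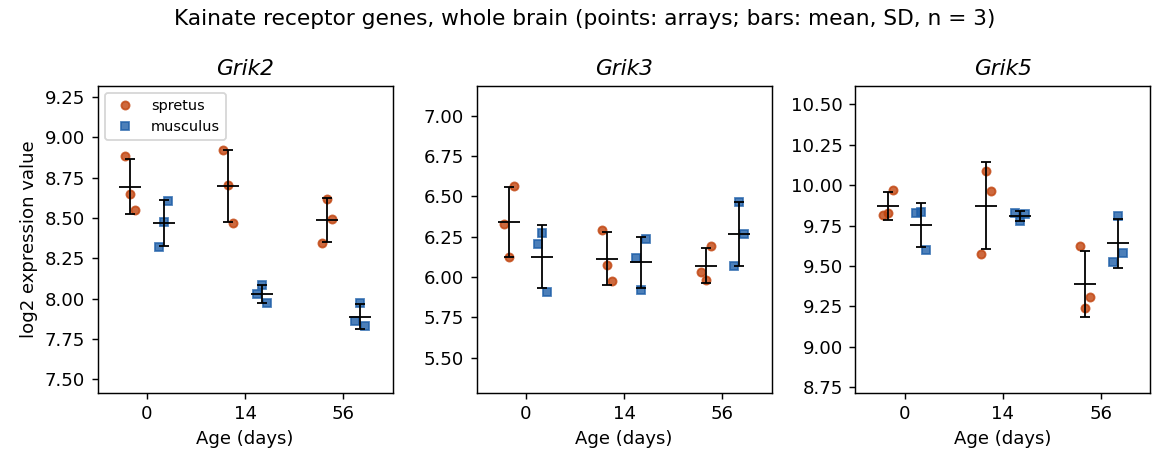
Log2 expression values of 3 kainate receptor genes by age in days, with spretus arrays as circles and musculus arrays as squares, and the mean and SD of each group of 3 arrays as black bars; every panel spans the same log2 range. The Grik2 arrays of spretus lie above those of musculus at days 14 and 56, Grik5 is lowest in spretus at day 56, and the Grik3 groups overlap.

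No AMPA gene was called between the species at any age. Of the 12 tests of an AMPA gene at single ages, 1 had an unadjusted limma p under 0.05, without a share of all genes to set beside it. The nearest was Gria4 at day 14, where spretus was higher by 0.39 ± 0.14 (limma, unadjusted p = 0.0114, adjusted p = 0.0723; 95% interval 0.10 to 0.68). It passed the threshold without musculus day 14 replicate 2 (0.49, adjusted p = 0.0479) and without spretus day 14 replicate 3 (0.52, adjusted p = 0.0242). With any 1 array left out the difference lay between 0.24 and 0.52. Over all alternative fits its limma adjusted p reached 0.302, so its size depended on single arrays. Gria4 was also the receptor gene with the most masked probes, 5, and whether sequence differences between the species affect its remaining probes was not tested. At day 56 it stood 0.24 ± 0.14 higher in spretus, without overlap between the arrays, and was not called (adjusted p = 0.275). Gria1 was lower in spretus at that age by 0.14 on the log2 scale, also without overlap and not called (adjusted p = 0.249). Arrays of the species did not overlap at day 56 in 3 of the 7 receptor genes and in 32.4% of all genes. For Gria3 the intervals of the species difference were -0.20 to 0.27 at day 0, -0.28 to 0.19 at day 14 and -0.15 to 0.32 at day 56.

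**Figure D4:**
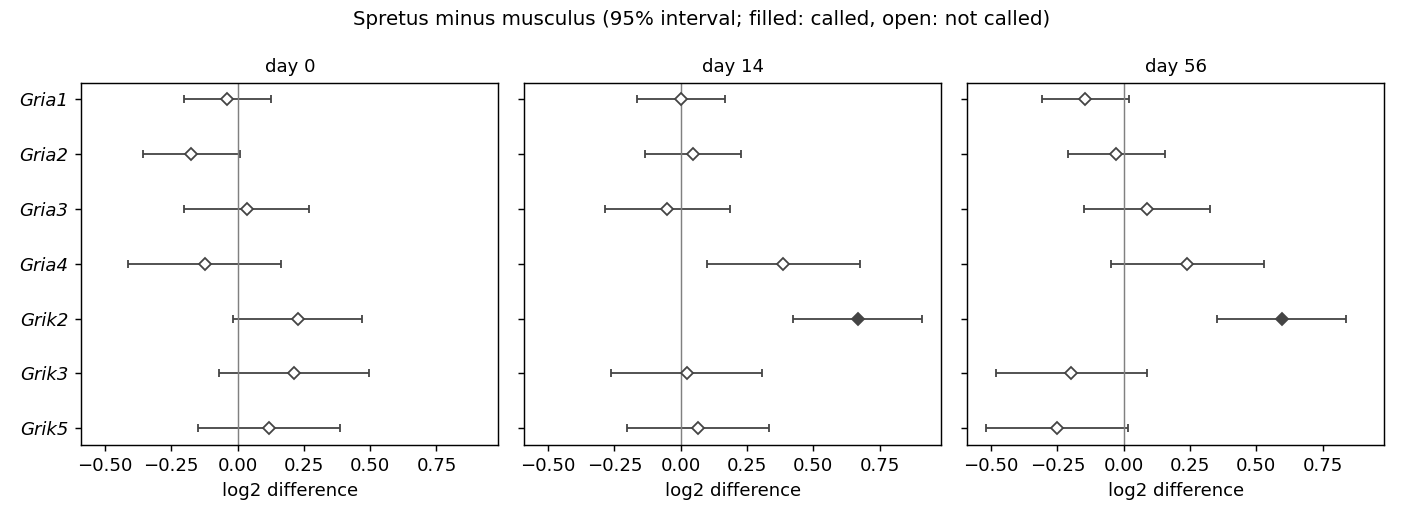
Log2 difference of each receptor gene, spretus minus musculus, at days 0, 14 and 56; bars are 95% intervals of the limma fit, and filled points were called. Grik2 is the gene with filled points, 0.67 at day 14 and 0.60 at day 56.

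Over the 18 arrays, the gene whose values followed those of Gria1 most closely was ENSMUSG00000042700, with Pearson's r of 0.978 as a description of likeness. These arrays share 3 ages and 2 species, so they are not 18 independent points. Its mean log2 values were 8.09, 9.27 and 9.65 at days 0, 14 and 56 in spretus and 8.02, 9.48 and 9.80 in musculus. The files do not pair this ID with a name.

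All 4 AMPA genes were higher at day 56 than at day 0, and the sequence in front of the receptor genes' transcription starts was examined where RefSeq's GRCm38.p6 promoter table had an entry, which was so for Gria2, Gria4, Grik2, Grik3 and Grik5, 5 of the 8 genes. Of the AMPA genes with an entry, Gria4 is shown, and the position of the Gria2 window was not checked. The 250 bases before the start of Gria4 lie outside the annotated gene. They span chr9:4796235-4796484 on the minus strand and are printed 5′ to 3′ with CCAAT motifs in capitals:
Gria4: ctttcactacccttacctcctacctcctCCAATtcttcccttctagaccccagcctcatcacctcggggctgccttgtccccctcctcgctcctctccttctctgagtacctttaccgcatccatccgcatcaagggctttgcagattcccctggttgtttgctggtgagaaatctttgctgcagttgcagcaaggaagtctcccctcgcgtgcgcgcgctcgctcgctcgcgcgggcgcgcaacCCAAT
The 250 bases were searched on both strands for CCAAT, the GC box GGGCGG and the TATA box TATAAA. Overlapping matches of a motif were counted separately. Gria4 held 2 CCAAT matches, Grik3 held 6 GC box matches and Grik5 held 2, and Gria2 and Grik2 held no match to any of the 3 motifs. Of 32851 promoters in the table, 33.8% held CCAAT, 32.7% the GC box and 12.4% the TATA box. The ratio of observed to expected CG pairs was 0.73 in Gria2, 0.83 in Gria4, 0.82 in Grik2, 1.01 in Grik3 and 0.24 in Grik5, against a median of 0.37. These matches are in the musculus reference sequence, of another strain than those measured.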

How the data were processed

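Male whole brains of 2 species at 3 ages were measured on 18 arrays, 3 per group, with groups taken from the sample titles. The deposited table held 1 log2 value per Ensembl gene and array; no label states the log base, and base 2 was read from their range of 2.89 to 13.82. The near-equal array medians are what values normalized across arrays would give, and no normalization method is given in the sources used here. A second table that the authors deposited lists masked probes, and was used only to count them per gene; its entries carry no other unit.

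A linear model with 6 group means was fitted to the values as deposited with limma 3.58.1 in R 4.3.3 (lmFit, contrasts.fit, eBayes; 12 residual degrees of freedom, 17.1 after moderation), over 12 comparisons, two-sided, with Benjamini-Hochberg adjustment over 12346 genes. The procedure was tested on simulated data. Gene symbols of the receptor genes came with the list; of 49997 reference genes, 0 carried an Ensembl ID, so lists of other receptor-associated genes and of cell type markers could not be matched and were not tested. All receptor genes with values are named, and the gene nearest to Gria1 by Pearson's r. Members and lists were chosen with earlier results of these data known. Labels name each sample as an individual; the number of arrays limits precision. No batch is given in the sources used here. Alternatives were quantile normalization, median centring, the arrays of a contrast alone, leaving out the dimmest 25% of genes, an intensity trend, a replicate block and leaving out each array.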

Additional observations from a re-analysis of the deposited data

How the results depend on the processing

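For the 7 receptor genes in 12 comparisons, 84 log2 differences were recomputed under up to 24 alternatives. Some of these, such as leaving out an array of a group outside the comparison, keep the difference and can change only its adjusted p. Of 21 called differences, 19 stayed called under all of them and 2 did not, Gria2 from day 0 to day 56 in musculus and Grik5 from day 14 to day 56 in spretus. Both also missed the threshold with the arrays of the contrast alone (limma, adjusted p = 0.0643 and 0.108). Of 63 not called, 5 passed the threshold under at least 1 alternative, and 0 called differences changed sign. The number of receptor genes called from day 14 to day 56 in spretus was 1 as reported and 0 with the arrays of the contrast alone, and 0 to 1 with 1 array left out. An intensity trend in the variance prior gave 1 call in place of 0 from day 14 to day 56 in musculus (Gria1) and 2 in place of 1 between the species at day 14 (Gria4 added). With 1 array left out the count at day 14, and that over the mean of the 3 ages, was 1 to 2. The causes were not tested. Titles number the replicates alike in every group. Same-numbered arrays of a species showed no strong shared deviation over all genes (r of -0.11 to 0.11 over 18 pairs). A weaker pairing could give such values too, so whether the numbers pair animals is not settled. With the replicate number as a replicate block, the counts were 4, 1 and 5 for day 14 minus day 0, day 56 minus day 14 and day 56 minus day 0 in spretus, and 3, 0 and 5 in musculus, the same as without it. Grik3 was the dimmest of these genes; how far signal over background limits each gene was not tested.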
